A study of Mus musculus with 6 samples.

Results

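In the stroma of newborn mouse bone marrow, 106 transcripts were well counted in RNA before an immunoprecipitation and were not read at all after it. Members were chosen on raw counts: 100 or more reads in both Input libraries and 0 reads in both IgG-bound and both anti-m6A-bound libraries. Of 27179 genes in the count table, 116 met these limits. The 106 described here carry a mouse symbol, since 5 of the 116 had none and 5 had symbols that the choice left out (Gm with a number; Zfp, Rab and 6 other families were to be left out too, but none met the limits). The values that chose the members are given below as a description and support no test. Scube1, a secreted glycoprotein with EGF-like repeats and a CUB domain, had the highest mean Input level of them.

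The libraries came from P2 mice of strain C57BL/6 and genotype Cxcl12-dsred/+, in which one copy of the chemokine gene Cxcl12 carries the red reporter DsRed. Sorted cells were DsRed-positive and negative for CD45, Ter119 and CD31, which mark leukocytes, erythroid cells and endothelium. Poly(A) RNA was saved as Input (6%) or passed to magnetic beads coated with IgG, the background control, or with an antibody that recognises N6-methyladenosine (m6A), from which free m6A nucleotide released the bound RNA; the unbound fraction is not analysed here. There were 2 libraries in each of the 3 groups, all of the same genotype and age. The labels do not say whether animals were pooled or whether the libraries of a group came from separate animals, so a p-value covers only how these libraries vary, and that variation may be technical.

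As background, m6A is an internal mark of mRNA placed on adenosines within a short consensus whose commonest core is GGAC, often in long exons and near stop codons. An antibody pull-down of whole transcripts enriches RNAs that carry the mark, while IgG beads hold RNA that sticks without it. The Input library serves as a reference for the transcripts that were there to be bound.

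Total counts were 7125578 and 9493391 in Input, 2487148 and 1278735 in IgG and 6102070 and 5133237 in anti-m6A. All 12 marrow stroma markers, Cxcl12 and Lepr among them, were counted in each Input and each anti-m6A library. Genes well counted in 1 library were seldom missing from the other of its pair, except from Input 2 to Input 1. Of 6921 genes with 100 or more reads in Input 1, 0 were missing from Input 2. Of 5796 and 5179 such genes in anti-m6A 1 and anti-m6A 2, 0 were missing from the other library of the pair. In the other Input direction, 548 of 7636 genes with 100 or more reads in Input 2 were at 0 in Input 1. Between groups, 203 and 218 of the 6921 well-counted genes of Input 1 were at 0 in anti-m6A 1 and anti-m6A 2, as were 337 and 365 of the 7636 of Input 2, fewer than were at 0 in Input 1. A zero in both anti-m6A libraries is thus not shown to be a pair of independent observations.

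The members took 0.459% of the counts of Input 1 (exact 95% confidence interval 0.454 to 0.464) and 0.304% of those of Input 2 (0.300 to 0.307). They took none of the counts of the pull-down libraries, where 0 counts allows a share of up to 4.92e-05% and 5.84e-05% in anti-m6A and up to 0.000121% and 0.000235% in IgG (3 counts of the total). Reads amplified without molecular identifiers are not independent molecules, so these limits cover counting error only. Input counts of the members ran from 103 to 1327 in Input 1 (median 247) and from 103 to 849 in Input 2 (median 222). At the share they had in Input, the median member would have had 186 and 157 reads in anti-m6A and 76.0 and 39.1 in IgG. For the member with the lowest Input level, Pdzd4, the same calculation gives 78.3 and 65.8 reads in anti-m6A and 31.9 and 16.4 in IgG.

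Absence from anti-m6A was rare among well-counted genes and depended on how well a gene was counted. Of 6429 genes with 100 or more reads in both Input libraries, 127 (1.98%) were at 0 in both anti-m6A libraries, and 116 (1.80%) were at 0 in all 4 pull-down libraries. When genes were ranged by the smaller of their Input counts, 64 of 1275 genes (5.02%) from 100 to below 200 reads were at 0 in both anti-m6A libraries. The share was 51 of 1540 (3.31%) from 200 to below 400 reads, 11 of 1578 (0.697%) from 400 to below 800 and 1 of 1099 (0.0910%) from 800 to below 1600. None of the 937 genes with 1600 or more reads was missing. Members accordingly sat low in the range: 53 in the first bin, 42 in the second, 10 in the third and 1, Scube1, in the fourth.

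**Figure D1:**
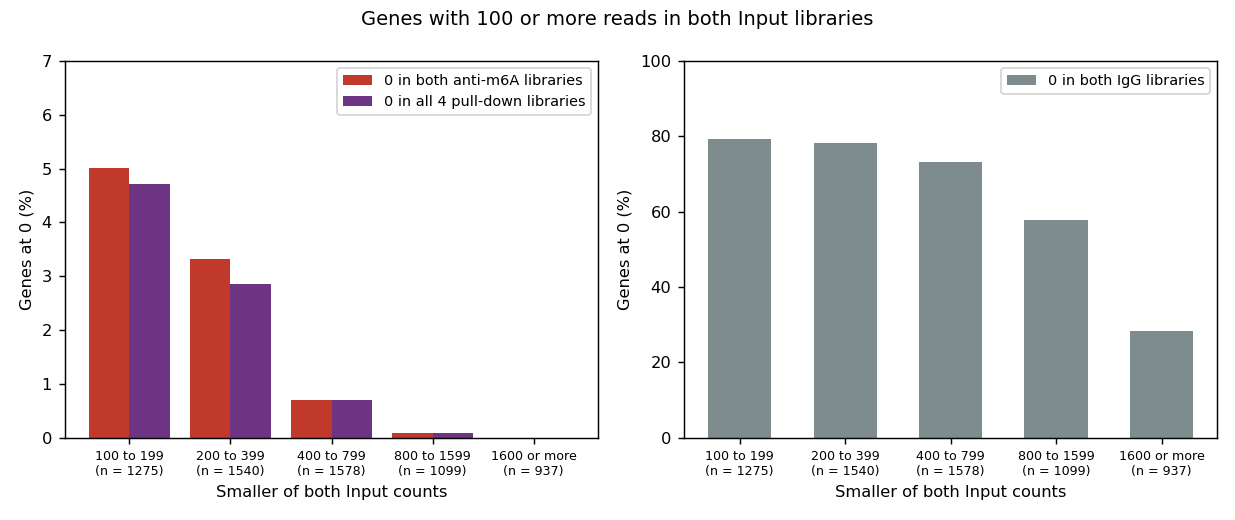
Bars give the percentage of genes at 0 in both anti-m6A libraries and in all 4 pull-down libraries (left) and in both IgG libraries (right), by the smaller of the Input counts, for the 6429 genes with 100 or more reads in both Input libraries. Absence from anti-m6A falls from 5.02% to 0 across the bins, and absence from IgG falls from 79.4% to 28.4%.

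Absence from IgG was common by comparison, at 4278 of the 6429 genes (66.5%), so the IgG zeros separate the members little from other genes. Of the 127 genes missing from anti-m6A, 116 were also missing from IgG. The other 11 included Gnmt, an enzyme of methyl group metabolism, with 4827 and 2741 reads in IgG. S100a8, a neutrophil calcium-binding protein, had 3587 and 1527. By contrast, Syne1, Ipmk, Abca5, Gcnt2, Klhl6, Usp13 and Car5b had only 1 to 3 reads in IgG 1 and 0 in IgG 2, next to the members' limit. Seen from the opposite side, 226 of 5136 genes with 100 or more reads in both anti-m6A libraries (4.40%) were at 0 in both Input libraries.

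In edgeR's quasi-likelihood test across all genes, 106 of 106 members were called lower than Input in anti-m6A, and 106 of 106 in IgG. Among all 11281 genes tested, 20.5% were called lower and 28% higher in anti-m6A, and 61.5% lower and 9.89% higher in IgG. Since the rule used both contrasts, the member counts say nothing further. Of the 106 calls against anti-m6A, 12 were left without anti-m6A replicate 1, 20 without anti-m6A replicate 2 and 69 with DESeq2, while all genes called lower went from 2308 to 72, 93 and 3635.

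The members with the highest mean Input CPM (reads scaled to library size, not corrected for gene length) came from several role groups. Scube1 (chromosome 15, 83602583 to 83725051, GRCm38) had 1327 and 849 reads in Input, or 120 ± 52.8 CPM (SD, n = 2). Ibtk, an inhibitor of Bruton's tyrosine kinase, had 712 and 705 reads, and its Input libraries were close at 76.3 ± 11.2 CPM. Oxld1, a small protein with an oxidoreductase-like domain, had 494 and 750 reads. The pair of Oxld1 values ran the other way, with Input 2 above Input 1. Trim10, a TRIM protein known from erythroid cells, had 605 and 602 reads, Cfap45, a protein of cilia and flagella, 684 and 461, and Aldh1b1, a mitochondrial aldehyde dehydrogenase, 625 and 513. By the rule all 6 had 0 reads in each of the 4 pull-down libraries, so the lack of overlap with Input values was fixed by the choice of members.

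A floor of 3 reads per library stands for 0.622 and 0.756 CPM in anti-m6A and 1.16 and 1.94 CPM in IgG. Bounds divide the mean Input CPM by the mean floor. They leave out the spread between the Input libraries, which for Scube1 were at 157 and 82.4 CPM. By group means, Scube1 in the antibody eluate was at least 174-fold lower, and in the IgG eluate at least 77.1-fold lower, than in Input. In the antibody eluate Ibtk was at least 111-fold lower, and Oxld1, Trim10, Cfap45 and Aldh1b1 at least 95.2-, 94.3-, 91.2- and 89.8-fold. Over all members the bound against anti-m6A ran from 16.3 to 174 with a median of 38.5. The bound against IgG ran from 7.25 to 77.1 with a median of 17.1, the lower values going with the smaller IgG libraries.

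The next 19 members by Input CPM each had from 217 to 784 reads in an Input library. Nuclear transport and chromatin were represented by Agfg1 (an FG-repeat protein related to nucleoporins; 636 and 455 reads), Tnpo1 (transportin, a nuclear import receptor; 589 and 501) and Pwwp2a (a chromatin protein that binds the histone variant H2A.Z; 528 and 578). Inpp5d, a phosphoinositide phosphatase known from blood cells, had 586 and 411 reads, and Card9, an adaptor of innate immune signalling, had 432 and 339. Il33, an alarmin cytokine stored in nuclei of stromal and epithelial cells, had 469 and 362. Cad, the enzyme that starts pyrimidine synthesis, had 523 and 367 reads. Counts in this group were therefore mostly higher in Input 1, the smaller of both Input libraries.

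Others were Gpr50, an orphan receptor related to melatonin receptors, with 547 and 440 reads, and Lman1l, a relative of a lectin of the secretory pathway, with 569 and 398. Tor4a, a torsin ATPase, had 545 and 370, and Ntn3, a netrin, had 459 and 384. Utp25, a ribosome biogenesis factor, had 481 and 352 reads, Tmcc1, a protein of the endoplasmic reticulum, 472 and 357, and Miga2, a protein of mitochondrial fusion, 481 and 331. Tmem220, a transmembrane protein, had 386 in both libraries, and the noncoding 4933431E20Rik had 380 and 343. Cela1, Sos1 and Dcaf12l1 had more reads in Input 2: Cela1, a pancreatic-type elastase, with 217 and 784 reads, Sos1, the exchange factor that activates Ras, with 237 and 579, and Dcaf12l1 with 222 and 535.

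**Figure D2:**
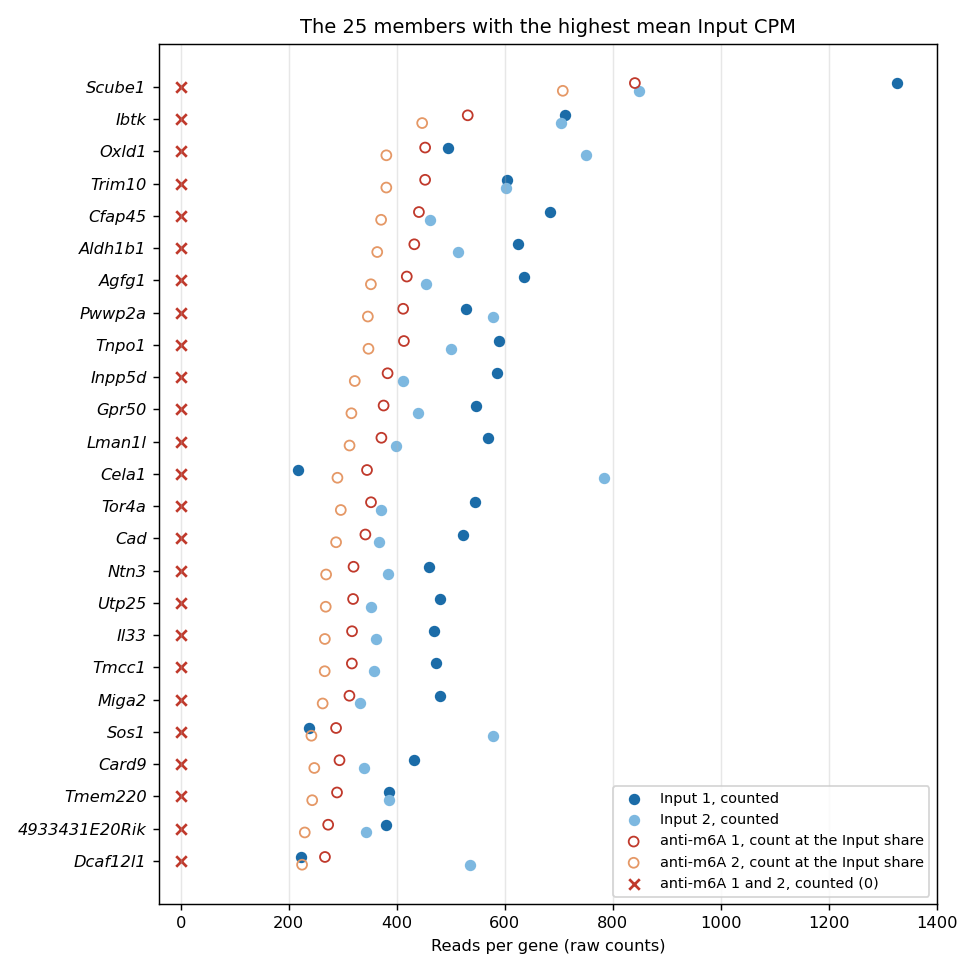
For the 25 members with the highest mean Input CPM, filled points give the reads counted in Input 1 and Input 2, open circles the reads that the Input share would give in each anti-m6A library, and crosses the reads counted there. All crosses lie at 0, while the open circles for Scube1 lie at 841 and 708 reads.

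Per length the order differed. Input CPM per 1000 bases of a representative transcript was 80.7 for Oxld1, whose transcript has 813 bases, 45.9 for Cela1, 32.9 for Cfap45 and 23.2 for Scube1, whose transcript has 5161. The median over the 99 members with a transcript in the annotation was 8.95, and the lowest value was 1.36, for Sptbn4, a spectrin. On this scale Scube1 is no longer first.

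By their known roles the members fell into 9 groups, drawn up after the members were known. A group of 13, named secreted for short, was not restricted to freely released proteins. Besides Scube1, Ntn3, Il33 and Cela1 it included the chemokines Cxcl10 (248 and 187 reads) and Cxcl2 (135 and 192). The protease inhibitors Pi16, Spint2 and Cstdc5 were also in it, with Apof, Ltf and Igip. Mean Input CPM in this group ran from 17.3 to 120. Cstdc5 belongs to a cluster of very similar stefin genes, so its reads are uncertain. A further 13 were surface or junction proteins, with Gpr50 highest and Csf1r lowest: receptors (Ccrl2, F2r, the thrombin receptor, Clec2d and Ildr2), adhesion proteins (Itga3, Col17a1, Lrrc4c, Nrxn3 and Cldn20), Tmeff1 and Cmtm8. Their Input CPM ran from 15.9 to 53.7.

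The largest group, 21 signalling and regulatory proteins at 13.8 to 76.3 CPM, held several Ras and phosphoinositide regulators. Among these were Sos1, Spred1 (an inhibitor of the Ras pathway), Dok2, Inpp5d, Mtmr12, Plcd3 and Plcxd1. Others were Ibtk, Trim10, Card9, Melk, Nuak2, Ptpn7, Ppp1r16b, Alox5ap, Znrf2, Sh3rf3, Nfkbid and Nol3. Nuclear and RNA-related proteins numbered 15, at 13.7 to 59.7 CPM. With Agfg1, Tnpo1, Pwwp2a and Utp25 they were Nup153 (a nucleoporin), Stag2 (a cohesin subunit), Bcorl1, Jade2, Phf13, Pop1, Recql5, Dna2, Carf, Nanos1 and Fam98a.

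Metabolic enzymes, glycosyl- or sulfotransferases and mitochondrial proteins numbered 14, at 14.7 to 65.6 CPM. One-carbon, pyrimidine, acetate and glucose metabolism were each represented by 1 gene (Shmt1, Cad, Acss2 and Pfkfb3), beside Oxld1, Aldh1b1, Miga2, Cox15, Xylb, Afg1l, Pdpr, Gal3st3, Chst10 and B4galt5. Membrane transport had 6 members: Slc7a5, the large neutral amino acid transporter, had 243 and 172 reads, Slc27a5 275 and 162, Slc12a5 225 and 237 and Slc15a3 244 and 135, with Serinc5 and Kcnu1 beside them. Structural, ciliary or membrane traffic proteins numbered 8 (Cfap45, Lman1l, Tor4a, Tmcc1, Tmcc2, Syt9, Gramd1b and Sptbn4). The remaining coding members were Tmem220, Dcaf12l1, Pcp4l1, Ttc7b, Faxc, Sestd1, Tsx and Pdzd4. The 8 long noncoding RNAs were 4933431E20Rik, A330048O09Rik, AU040972, 2610020C07Rik, Snhg4, BC037032, G630055G22Rik and A830019L24Rik, at 14.9 to 39.1 CPM. Noncoding RNAs made up 8 of 106 members (7.55%) against 111 of the 6429 genes well counted in Input (1.73%). Where the smaller Input count was below 400, 8 of 95 members and 83 of 2815 genes (2.95%) were noncoding.

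Relatives of the members from the same gene families were counted as a description. For 30 members, 43 relatives or partners were listed after the members were known, and no test was made. Genes that are themselves members were not listed as relatives. Tmcc2, with 345 and 192 reads in Input, was thus not listed beside Tmcc1. The list therefore left out most genes that could have been at 0 in anti-m6A. Of these, 17 had 100 or more reads in both Input libraries, and all 17 had reads in both anti-m6A libraries, while 13 were at 0 in both IgG libraries. Over all 6429 such genes, members included, 1.98% were at 0 in both anti-m6A libraries and 66.5% in both IgG libraries. Nothing particular to relatives is therefore read from these counts.

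Fam98a had 230 and 325 reads in Input and 0 in anti-m6A. Its relative Fam98b had 258 and 476 in Input and 823 and 648 in anti-m6A. Shmt1, the cytosolic serine hydroxymethyltransferase, had 357 and 269 reads in Input. Its mitochondrial counterpart Shmt2 had 351 and 233 there, 189 and 116 in anti-m6A and also 77 and 29 in IgG. In both families the relative had Input counts close to those of the member. Stag2 (220 and 414 in Input) was missing from anti-m6A, where Stag1 (1095 and 1200 in Input) had 153 and 128. Cox15, of haem A synthesis, had 423 and 275 in Input, and Cox10, of the step before it, had 301 and 210 there and 332 and 252 in anti-m6A. Unlike Shmt2, the relatives Fam98b, Stag1 and Cox10 were at 0 in both IgG libraries.

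Other relatives were read in anti-m6A only at the edge of detection. Tnpo2 had 812 and 1212 reads in Input and 4 and 3 in anti-m6A, beside Tnpo1 with 589 and 501 in Input and none. Miga1, the relative of Miga2, had 467 and 474 in Input and 5 and 1 in anti-m6A. These relatives stood next to the limit that defines the members.

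Some relatives showed the opposite pattern. Of the 43 relatives, 17 were at 0 in both Input libraries, and 4 of these had reads in both anti-m6A libraries. Cxcl2 and Cxcl1, neighbouring neutrophil chemokines, were split between the groups: Cxcl2 had 135 and 192 reads in Input and none in anti-m6A, and Cxcl1 had none in Input and 146 and 155 in anti-m6A. Scube2 likewise had none in Input and 23 and 17 reads in anti-m6A, whereas Scube3 was at 0 in all 6 libraries.

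**Figure D3:**
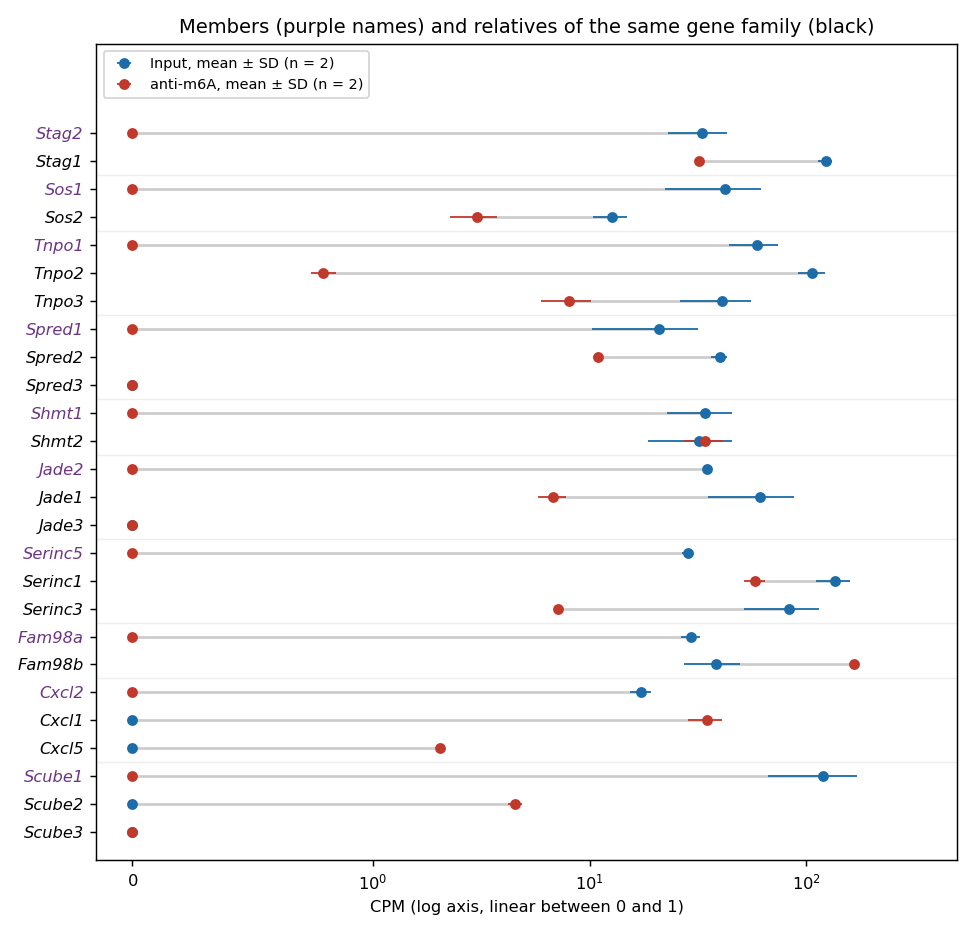
Points give the mean CPM in Input and anti-m6A (bars, SD, n = 2) of 10 members, in purple, and of their relatives, in black, on an axis that is linear between 0 and 1. Members lie at 0 in anti-m6A, Shmt2 lies at a like level in both groups, and Cxcl1 and Scube2 lie at 0 in Input. IgG values are not shown.

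Wider gene families were counted from the fit over all genes without their members, whose calls the rule had fixed, against 20.5% of all genes lower and 28% higher in anti-m6A than in Input. SCUBE proteins are known for release of hedgehog ligands, and of 23 genes of the SCUBE and hedgehog pathway 12 were tested beside Scube1. Of these 12, 2 were lower (the receptor Ptch1 and the ciliary protein Evc) and 1 (Scube2) was higher; the median change (log2) was -0.87, beside 0.18 for all genes. Evc had 494 and 1047 reads in Input and 140 and 96 in anti-m6A, a change of -1.59 ± 0.42 (log2, SE, n = 2 per group; edgeR adjusted p = 0.0411). Its call was lost without anti-m6A replicate 1 or 2 (edgeR adjusted p = 0.277 and 0.342) and when replicate number was a block (0.0946), and that of Ptch1 was lost in 6 of 10 alternatives (edgeR adjusted p from 0.0556 to 0.482).

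Of 30 TRIM genes other than Trim10, 10 were lower and 7 higher, with a median of -0.82. Trim28, a corepressor, had 186 ± 18.4 CPM in Input and 60.8 ± 3.86 in the antibody eluate (SD, n = 2 each), which is -1.61 ± 0.27 in log2 (SE; adjusted p by edgeR = 0.0122). Among 14 aldehyde dehydrogenases other than Aldh1b1, 3 were lower and 2 higher (median -0.69), and Aldh7a1 had 144 ± 21.7 and 57.9 ± 0.407 CPM in these groups (SD, n = 2 each), which is -1.32 ± 0.23 in log2 (SE; adjusted p by edgeR = 0.00908). Without anti-m6A replicate 1 or 2 neither was called (edgeR adjusted p of 0.196 and 0.168 for Trim28 and 0.182 and 0.178 for Aldh7a1).

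Deubiquitinases of the USP family, which hold no member, had 15 lower and 5 higher genes of 36 (median -1.18). Kelch and BTB proteins other than Ibtk had 5 and 6 of 20 (median 0.62), and cilia and flagella proteins other than Cfap45 had 3 higher of 7 (median 0.76). Solute carriers other than Slc25 and the 4 members had 42 lower and 40 higher genes of 145. F-box proteins had 10 and 16 of 50 (median 0.03, or 0.06 with the floor), transmembrane proteins of the Tmem series other than Tmem220 20 and 45 of 138 (median 0.30), and coiled-coil proteins 9 and 29 of 64 (median 1.39). In IgG the families ran from 25 of 50 F-box genes to 94 of 138 Tmem genes lower than Input, beside 61.5% of all genes.

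Several members are known from blood cells, which the sort left out. Ltf, a neutrophil granule protein, had 329 and 196 reads in Input, and Csf1r, the macrophage growth factor receptor, had 180 and 108. For such levels in bulk RNA, fewer cells that make a transcript and less of it per cell cannot be told apart. Of the 12 leukocyte markers 5 were read in each Input library, at a summed 105 and 163 CPM, and Ptprc, which encodes CD45, Mpo and Elane were at 0 there. In anti-m6A 1 of the 12 was read, at 38.2 and 45.9 CPM, and in IgG 4 were read, at 2578 and 1725 CPM. The 13 erythroid markers in the table, Trim10 among them, summed to 548 and 731 CPM in Input, 3623 and 3531 in IgG and 1044 and 1212 in anti-m6A. Globin genes made up most of this. In each Input library 7 of the 13 were read, Slc4a1 (104 and 120 reads) and Sptb (80 and 95) among them, while Rhag and Epb42 were at 0. Hepatocyte markers, which hold no member, summed to 140 CPM in Input 1 and 1999 in Input 2, with 25743 and 23618 in IgG and 1194 and 1260.2 in anti-m6A. The part of other cell types in the absence of these members was not tested.

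Csf1, the ligand of Csf1r, was recovered where its receptor was not, with 2827 and 3964 reads in Input and 836 and 763 in anti-m6A. Slc3a2, which encodes the heavy chain that pairs with Slc7a5, had 456 and 657 reads in Input, 1664 and 1364 in anti-m6A and 1330 and 73 in IgG. Csf1 and Slc3a2 were thus well read in the antibody eluate, and Slc3a2 in IgG 1 as well. Il1rl1, listed as the partner of Il33, had 0 and 1 reads in Input and 0 in both anti-m6A libraries.

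Both Input libraries held the members at different shares. CPM was higher in Input 1 than in Input 2 for 90 of 106 members (84.9%), against 60.3% of 6323 other genes well counted in Input and 65.9% of the 2720 others with a smaller Input count below 400. The median ratio of Input 1 to Input 2 was 1.62 for members, 1.17 for all others and 1.40 for the 2720. Among members the ratio ran from 0.241 for A330048O09Rik (120 and 607 reads) to 3.02. The libraries were over 2-fold apart for 21 members (19.8%) and for 29.3% of the 2720 other genes; scaled by library totals in place of TMM, for 35 members (33.0%) and 35.7%. No test was made of this, since the rule set a minimum in both Input libraries.

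**Figure D4:**
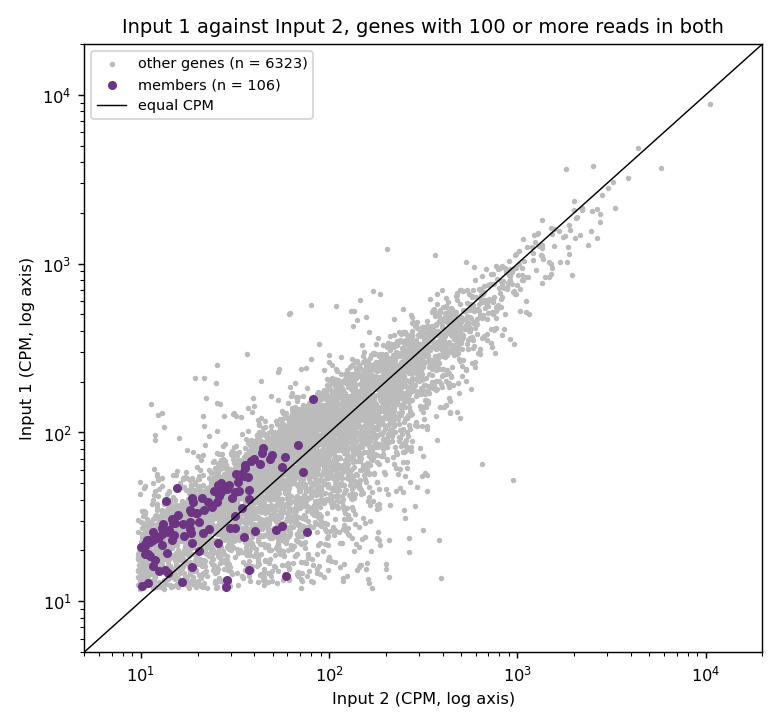
Each point is a gene with 100 or more reads in both Input libraries, placed by its CPM in Input 2 and Input 1 on log axes, with members in purple and the line of equal CPM. Members lie at the lower end of the range, and 90 of the 106 lie above the line.

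Sequence features that the rule did not use differed little between members and other genes, where a transcript was found. One representative transcript of the GENCODE M21 annotation (GRCm38) was found for 99 of 106 members and 6158 of 6429 well-counted genes. The members without one were all long noncoding RNAs, so of the noncoding members only AU040972 is covered. Median transcript length was 3446 bases for members, 2900 for other genes and 3358 for other genes with a smaller Input count below 400. For members in that range it was 3478. The longest exon had a median of 1684 bases in these 88 members and 1629 in the 2543 other genes, and GC content had medians of 51.0% and 49.3%. The members had a median of 10 exons in that range, and so had the other genes.

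The letters GGACT, a frequent form of the m6A consensus, were searched on the transcript's own strand. They occurred at least once in 93 of 99 member transcripts (93.9%), in 91.0% of other genes and in 93.4% of other genes with a smaller Input count below 400. Their density in the last range had a median of 1.06 per 1000 bases in members and 1.01 in other genes. The shorter GGAC, which every GGACT contains, had medians of 4.12 and 4.01. The 6 member transcripts with no GGACT were those of Cela1, Pcp4l1, Spint2, Clec2d, Cstdc5 and Cxcl2. A match is a run of letters and does not show that a base is methylated.

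Windows of 25 bases around the first GGACT (capitals) that lies with its flanks in 1 coding exon are shown for the 6 members with the highest Input CPM, to show that the letters occur in RNAs that were not read in the antibody eluate. They are GENCODE M21 transcript sequences, 5′ to 3′, on GRCm38:
Scube1: gagggaaccgGGACTtgcggcatag
Ibtk: aaggagtgttGGACTggctgattga
Oxld1: tctccagctgGGACTgctgccagag
Trim10: aaaggatccgGGACTtcccccaaca
Cfap45: aaccggtcacGGACTaggactcgct
Aldh1b1: ctccagggcaGGACTacctcttact
The Scube1 window is at chr15:83616638-83616662 on the minus strand, in exon 13 of 20, and its transcript holds 9 matches. That of Ibtk is at chr9:85743478-85743502 (minus strand, exon 2 of 29, 9 matches in the transcript) and that of Oxld1 at chr11:120457125-120457149 (minus strand, exon 2 of 2, 2 matches). Trim10 has it at chr17:36874219-36874243 (plus strand, exon 5 of 7, 3 matches), Cfap45 at chr1:172527835-172527859 (plus strand, exon 2 of 12, 2 matches) and Aldh1b1 at chr4:45802503-45802527 (plus strand, exon 2 of 2, 1 match). Both Cfap45 matches lie in the window shown, the later of them in lower case. Scube1 and Ibtk, with the longest transcripts of the 6, thus hold the most matches.

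**Figure D5:**
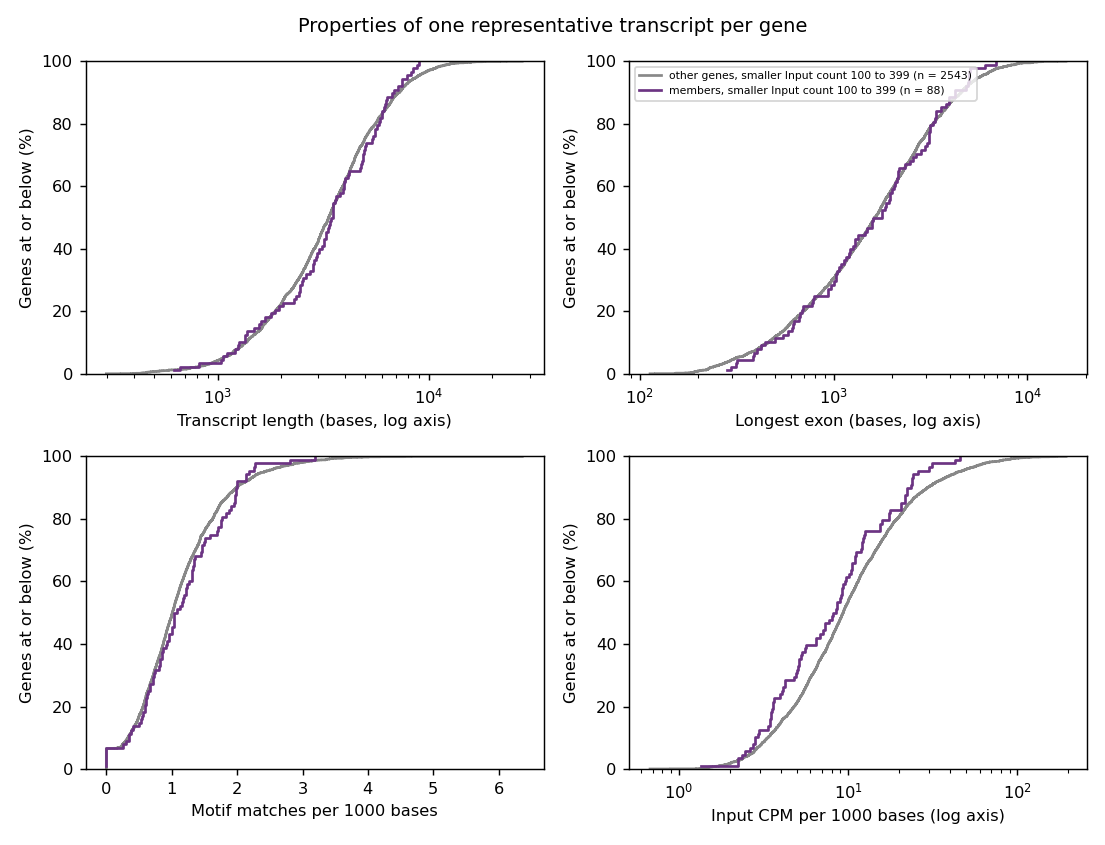
Curves give the percentage of genes at or below each value for the 88 members (purple) and 2543 other genes (grey) with a smaller Input count below 400, for transcript length, longest exon, matches to the motif GGACT per 1000 bases and Input CPM per 1000 bases. The curves lie close together, with median lengths of 3478 and 3358 bases.

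Exons of 33 of the 99 members (33.3%) overlapped an exon of another gene, 30 of them on the opposite strand, against 38.1% of other well-counted genes. Ibtk, Cfap45, Ntn3, Card9, Csf1r and Cxcl10 were among the 30. Reads in the shared stretch cannot be told from those of the partner without strand, which the library method does not mark. How much of each gene is shared was not measured. Members lay on 20 chromosomes, most often on chromosomes 1, 2 and 11. There they were 13 of 354 well-counted genes (3.67%), 11 of 485 (2.27%) and 9 of 526 (1.71%). On the X chromosome there were 6, or 3.02% of its well-counted genes. Over all chromosomes, members were 106 of 6429 such genes, and 116 (1.80%) met the count limits. Differences between chromosomes were not tested.

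The limits of the rule cut through a continuous range. Just inside the Input limit were 2610020C07Rik (103 and 293 reads), G630055G22Rik (177 and 103), Pdzd4 (104 and 105), Chst10 (162 and 108) and Csf1r (180 and 108). Just outside it, also at 0 in all pull-down libraries, were Myom3 (117 and 98), Zmynd15 (145 and 97), Icam5 (202 and 95), Ocm (127 and 95) and Gpr179 (147 and 94). A further 58 genes with a usable symbol had 100 or more reads in both Input libraries and only 1 to 3 reads over the 4 pull-down libraries. The highest of these by Input CPM were Neo1, a receptor of netrins and RGM proteins, with 946 and 1241 Input reads and 3 in anti-m6A 2, and Dpp8, a peptidase, with 935 and 827 and 1 and 2 in anti-m6A. Usp13 (388 and 1107) had 2 reads in IgG 1, Prmt9 (693 and 580) had 1 in anti-m6A 2, and Fam83d (613 and 471) had 1 in anti-m6A 1. Neo1 and Dpp8 were counted in Input at levels near that of Scube1. The number of members was 53 with an Input limit of 200 reads, 164 with up to 3 pull-down reads allowed and 239 without Input replicate 1.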

How the data were processed

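Raw counts for 6 libraries, by Entrez gene, were deposited by the authors as 1 table. The submitters' processing notes list mm10, featureCounts, Picard and edgeR 3.38.1, with no role or order. Aligner: not given in the sources used here. Nor is the annotation. Per the labels' protocols, libraries were made by Smart-seq2, a method that marks neither strand nor molecules. Symbols came from RefSeq GRCm38.p6 (25275 of 27179 rows matched). The test was run with edgeR 4.0.16 under R 4.3.3: filterByExpr by group (minimum count 10, total 15), TMM scaling, 1 quasi-likelihood fit of 3 group means, Benjamini-Hochberg adjustment over 11281 genes at 0.05. The code was tested on simulated data. CPM are counts per TMM-scaled library. A group at 0 was set to 3 counts per library to give a bound on the ratio of group means. The representative transcript was the longest, protein-coding first. DESeq2 1.42.0 was an alternative. Named were Scube1, the 25 members of highest mean Input CPM, members in the fixed lists and the genes nearest each limit; other genes given with values (relatives, called list genes, genes missing from anti-m6A alone) were chosen after their values could be seen, as were the role groups. A few genes, members among them, are counted but not reported here by name. Members and lists were chosen with earlier results of these data known.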

Additional observations from a re-analysis of the deposited data

How the results depend on the processing

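The number of members was 106, 53 with an Input minimum of 200, 164 with at most 3 pull-down counts in all, and 106 to 239 with each library left out of the rule in turn. Genes lower in anti-m6A than in Input numbered 2308, with 3635 by DESeq2, 1242 in the fit with a replicate block, and 72 to 3961 with each library left out (72 and 93 without anti-m6A replicate 1 and 2, 3961 and 3472 without Input replicate 1 and 2). Members called lower there numbered 106 with the block, 69 by DESeq2 and 12 to 106 with each library left out; against IgG they numbered 64 by DESeq2 and 106 in each other fit. Replicate numbers were not taken as pairs: deviations of same-numbered libraries correlated at 0.0719 (Input and IgG), 0.131 and 0.194. Chosen after seeing the data, DESeq2 size factors raised the bounds against anti-m6A by 1.33 to 1.38 times over the 35 members that the naming rule gives. The IgG libraries, the smallest, limit every statement on IgG.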
